A study of Bos taurus with 23 samples.

Results

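ROR2, TLE4, CTBP2 and HHEX are genes of the Wnt pathway and of the repressor complexes that act on its targets, and their transcript levels were followed across endometrial biopsies of 23 Holstein cows. These 4 genes were taken from the biomarker list of the study, of which 46 other genes were also present among the 24616 Ensembl genes of the count tables. That list was chosen by machine learning on expression in pregnant (R) and non-pregnant (nonR) animals, with most of the Holstein cows of this series among them. The labels do not tell which cows those were, so no set of cows outside that choice could be formed. ROR2, TLE4 and HHEX were listed there for higher and CTBP2 for lower expression in R animals. The difference between the pregnancy groups is therefore given below as a description and was not tested. All 4 genes passed the filter on low counts, as did 14852 genes in all.

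The cows were lactating and of parity 1 to 3. Each was biopsied on day 6 to 8 of dioestrus, before any embryo was present. In the next cycle an embryo produced in vitro was transferred to the same animal at the same stage, and pregnancy was read at slaughter on day 26 to 47. The groups held 12 pregnant and 11 non-pregnant cows, with 1 library per cow, so that each replicate is a separate animal. Of the 12 cows of parity 1, 7 became pregnant, and of the 11 cows of parity 2 or more (5 of parity 2 and 6 of parity 3), 5 did. The time from the last calving to transfer ran from 128 to 274 days, with a median of 174 days. It was 161.5 days at the median in parity 1 and 187 days in parity 2 or more, so that cows of higher parity also had the longer interval at the median.

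Wnt proteins are secreted signals that guide growth and cell fate, and in the uterus they take part in the formation of glands and in the cyclic renewal of the endometrium. In the canonical branch the signal stabilises beta-catenin, which enters the nucleus, joins TCF/LEF factors on DNA and turns their target genes on. Without the signal the same factors recruit TLE corepressors, the mammalian relatives of Groucho, and the targets stay silent. ROR2 is a receptor tyrosine kinase-like protein that binds WNT5A and serves mainly the branch that does not use beta-catenin. TLE4 is a Groucho-type corepressor. CTBP2 is a corepressor that binds NADH and brings histone-modifying enzymes to DNA-bound repressors. HHEX is a homeodomain factor of early endoderm, liver, endothelium and blood progenitors that can repress its targets together with TLE proteins.

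Between 6920879 and 27357249 reads were counted in genes per library, with a median of 18730880. The first principal component of all tested genes held 42.5% of the variance, and 4 libraries stood apart on it (non-pregnant 4 and 6, pregnant 22 and 23), with scores of 56.0 or more against 10.4 or less in the other 19. A further pair of libraries, pregnant 20 and 21, were the shallowest. Of their reads in genes, outside genes or ambiguous, at least 75.5% lay outside annotated genes, against 59.6% or less elsewhere. Both sets of libraries touch the values of the 4 genes. The correlations among ROR2, TLE4 and CTBP2 are therefore given with and without them, and other results only in part. In the biopsies, fewer cells of a type and less RNA per cell cannot be told apart. The cell types of the tissue could not be checked against their markers, because the files name genes by Ensembl identifier and no table used here pairs those identifiers with symbols beyond the biomarker list.

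ROR2 (ENSBTAG00000005092) had a mean of 26.2 ± 8.75 CPM (SD, n = 23), where CPM is the count scaled to library size by TMM, edgeR's trimmed mean normalization. CPM is not corrected for gene length, so levels are compared between cows and not between genes. In pregnant cows the lowest, median and highest values were 5.00, 28.6 and 35.2 CPM, and in non-pregnant cows they were 15.2, 27.9 and 39.0 CPM. The ranges overlapped over most of their length, and the 3 lowest values came from libraries that stood apart. Pregnant 22 had 5.00 CPM, pregnant 23 had 5.38 CPM, non-pregnant 6 had 15.2 CPM and non-pregnant 4 had 24.0 CPM. The other 19 cows lay between 19.7 and 39.0 CPM, with a mean of 29.1 ± 5.34 CPM (SD, n = 19), against 12.4 ± 9.05 CPM (SD, n = 4) in the 4 libraries apart. The lowest count, 58 reads in pregnant 23, gave an exact Poisson 95% interval of 4.09 to 6.96 CPM, which lies below the level of every library outside those 4. Such intervals cover counting error only.

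TLE4 (ENSBTAG00000003532) averaged 18.4 ± 4.41 CPM (SD, n = 23) and varied 2.25-fold between the lowest and the highest cow. The lowest, median and highest values were 12.1, 19.7 and 26.6 CPM in pregnant cows and 11.8, 16.7 and 25.4 CPM in non-pregnant cows. Both groups spanned nearly the same range. The highest levels belonged to pregnant 15 at 26.6 CPM and non-pregnant 14 at 25.4 CPM, and the lowest to non-pregnant 4 at 11.8 CPM and pregnant 21 at 12.1 CPM.

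CTBP2 (ENSBTAG00000003397) averaged 72.6 ± 16.2 CPM (SD, n = 23), and 1 library lay far above the rest. Pregnant 21 had 132.5 CPM, whereas the next highest cow, pregnant 22, had 85.8 CPM. Without pregnant 20 and 21 the mean was 69.2 ± 9.65 CPM (SD, n = 21). The lowest, median and highest values were 54.8, 65.7 and 132.5 CPM in pregnant cows and 63.2, 72.4 and 85.6 CPM in non-pregnant cows. All 11 non-pregnant cows thus lay inside the range of the pregnant cows.

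HHEX (ENSBTAG00000014217) had 73 to 467 reads per library and averaged 12.5 ± 4.20 CPM (SD, n = 23). Its lowest, median and highest values were 3.93, 13.1 and 25.7 CPM in pregnant cows and 8.72, 11.0 and 15.6 CPM in non-pregnant cows. Both ends of the range were libraries that stood apart and that shared a very low ROR2 level. Pregnant 22 had 3.93 CPM of HHEX and pregnant 23 had 25.7 CPM, so these 2 cows were alike in ROR2 and opposite in HHEX. The exact Poisson 95% interval of the lowest value, 3.08 to 4.94 CPM, ended below the next lowest cow, non-pregnant 3 at 8.72 CPM.

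**Figure D1:**
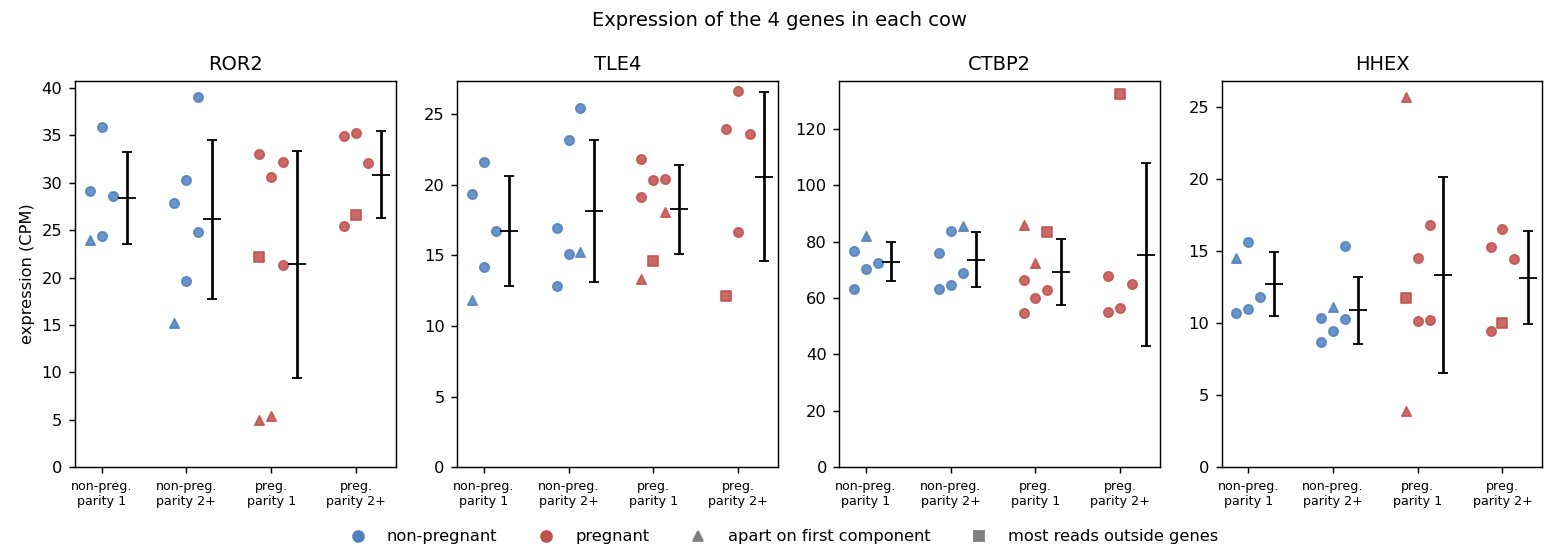
Expression of ROR2, TLE4, CTBP2 and HHEX in CPM on a linear axis for each of 23 cows, split by pregnancy and parity class. Bars show the mean and SD of each group, triangles the 4 libraries apart on the first principal component and squares pregnant 20 and 21. The lowest ROR2 values (5.00 and 5.38 CPM) and both extremes of HHEX (3.93 and 25.7 CPM) are triangles, and the highest CTBP2 value (132.5 CPM) is a square.

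As a description of the contrast on which these genes were chosen, the edgeR estimate of pregnant minus non-pregnant on the log2 scale was -0.10 (SE 0.26) for ROR2, 0.14 (SE 0.15) for TLE4, -0.03 (SE 0.12) for CTBP2 and 0.18 (SE 0.20) for HHEX. Each estimate moved with single cows. With each cow left out in turn, ROR2 ran from -0.18 without non-pregnant 6 to 0.0020 without pregnant 22, and it was 0.01 without the 4 libraries apart. TLE4 ran from 0.074 without non-pregnant 4 to 0.19 without non-pregnant 14. CTBP2 ran from -0.14 without pregnant 21 to -0.00084 without pregnant 10, and it was -0.18 (SE 0.09) without pregnant 20 and 21. HHEX ran from 0.031 without pregnant 23 to 0.27 without pregnant 22.

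The spread between cows was set against that of the 1000 genes nearest in level. The biological coefficient of variation, which is the spread left after counting error, was 0.439 for ROR2 against a median of 0.261 for its neighbours in level, placing it at percentile 81.4. It was 0.262 for TLE4 against 0.280 (percentile 41.0), 0.233 for CTBP2 against 0.243 (percentile 45.6), and 0.351 for HHEX against 0.298 (percentile 63.1). These percentiles were not computed again without the 4 libraries apart. The SD as a share of the mean CPM was 33.4% for ROR2, 24.0% for TLE4, 22.4% for CTBP2 and 33.6% for HHEX in all cows. Without those 4 libraries it was 18.3%, 22.6%, 24.3% and 22.2%, so that ROR2 went from near the highest of the 4 to the lowest. Pregnancy status, parity class and days from calving together accounted for 9.52% of the variance of log2 CPM for ROR2, 14.6% for TLE4, 3.91% for CTBP2 and 6.73% for HHEX. These shares are not adjusted for the number of labels, and unrelated labels would also take up a share. With that number counted, the SD of log2 CPM after the labels was 0.773 for ROR2, against 0.755 before. It was 0.348 against 0.350 for TLE4, 0.294 against 0.279 for CTBP2 and 0.520 against 0.501 for HHEX. Most of the variance between cows remained after these labels.

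Whether the 4 genes moved together from cow to cow was then examined on log2 CPM with each pregnancy group's mean removed, so that the difference used to choose them was taken out. Permutation tests shuffled cows within the groups (100000 resamples, two-sided), and p-values were adjusted by Benjamini-Hochberg over the 6 pairs. The corepressors TLE4 and CTBP2 ran in opposite directions. Cows with more TLE4 had less CTBP2, with Pearson r of -0.744 (permutation p = 2.0e-05, adjusted p = 0.00012) and Spearman rho of -0.733 (permutation p = 0.00013, adjusted p = 0.00078). In 20 of 23 cows the genes lay on opposite sides of their group means, the exceptions being non-pregnant 12 and 16 and pregnant 11. Leaving out the cows farthest from the median of TLE4, pregnant 21 and non-pregnant 14, gave r of -0.730.

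In the values themselves, pregnant 18 had 23.6 CPM of TLE4 and 54.9 CPM of CTBP2, and pregnant 10 had 24.0 and 56.4 CPM. At the other end, pregnant 21 had 12.1 CPM of TLE4 and 132.5 CPM of CTBP2, non-pregnant 4 had 11.8 and 82.1 CPM, and non-pregnant 19 had 12.9 and 83.8 CPM. The ratio of CTBP2 to TLE4 CPM within a cow ran from 2.33 in pregnant 18 to 10.9 in pregnant 21, a 4.70-fold range. Its median was 3.27 in pregnant and 4.48 in non-pregnant cows, and the ranges of the groups overlapped, at 2.33 to 10.9 and 2.54 to 6.94. Among the 14851 other genes tested, 7 (0.0471%) had a lower rho with TLE4 than CTBP2 had, whereas 165 (1.11%) had a lower rho with CTBP2 than TLE4 had. Without the 4 libraries apart these shares were 0.586% and 1.49%. They describe the same libraries and are no test.

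ROR2 followed the same axis by rank. Its rho was -0.680 with CTBP2 (permutation p = 0.00083, adjusted p = 0.00249), with opposite sides of the group means in 18 of 23 cows, and 0.545 with TLE4 (permutation p = 0.00511, adjusted p = 0.0102), with the same side in 15 of 23. Pearson's r did not pass the threshold for either pair, at -0.377 (permutation p = 0.150, adjusted p = 0.225) and 0.410 (permutation p = 0.0529, adjusted p = 0.109). Leaving out pregnant 22 and 23, the cows farthest from the median of ROR2, gave r of -0.411 and 0.411. Pregnant 21 lay far from the other cows for CTBP2, and without pregnant 20 and 21 the r of ROR2 and CTBP2 was -0.741 (permutation, adjusted p = 0.00042). Among all other genes tested, 0.505% had a lower rho with ROR2 than CTBP2 had, and 92.4% a lower rho than TLE4 had. With CTBP2, 2.31% had a lower rho than ROR2 had, and with TLE4 96.7% had. Without the 4 libraries apart the shares were 1.31%, 96.7%, 3.75% and 95.5%, in the same order. They too are no test.

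No pair with HHEX passed the threshold in all 23 cows. Its rho was 0.402 with TLE4 (permutation p = 0.0619, adjusted p = 0.0929; r = 0.408, adjusted p = 0.109), 0.229 with ROR2 (permutation p = 0.303, adjusted p = 0.303; r = 0.260, adjusted p = 0.320) and -0.328 with CTBP2 (permutation p = 0.153, adjusted p = 0.183; r = -0.326, adjusted p = 0.250). Without the cows farthest from the median of the partner gene the r values were 0.360 with TLE4, 0.349 with ROR2 and -0.099 with CTBP2, so the last rested on pregnant 21 and 22. Pregnant 23 combined the highest HHEX with nearly the lowest ROR2, and without it rho was 0.491 with ROR2 and 0.504 with TLE4 (permutation, adjusted p = 0.0304 for both). Pregnant 22 combined the lowest ROR2 with the lowest HHEX, and without it the r of ROR2 and HHEX changed sign to -0.351 (rho 0.165), and that of TLE4 and HHEX was 0.276 (rho 0.318). Neither pair passed the threshold without pregnant 22. The r of ROR2 and HHEX moved in opposite directions without pregnant 22 (-0.351) and without pregnant 23 (0.777), and was 0.349 without both. Without the 4 libraries apart the rho of ROR2 and HHEX was 0.463 (permutation, adjusted p = 0.0634).

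**Figure D2:**
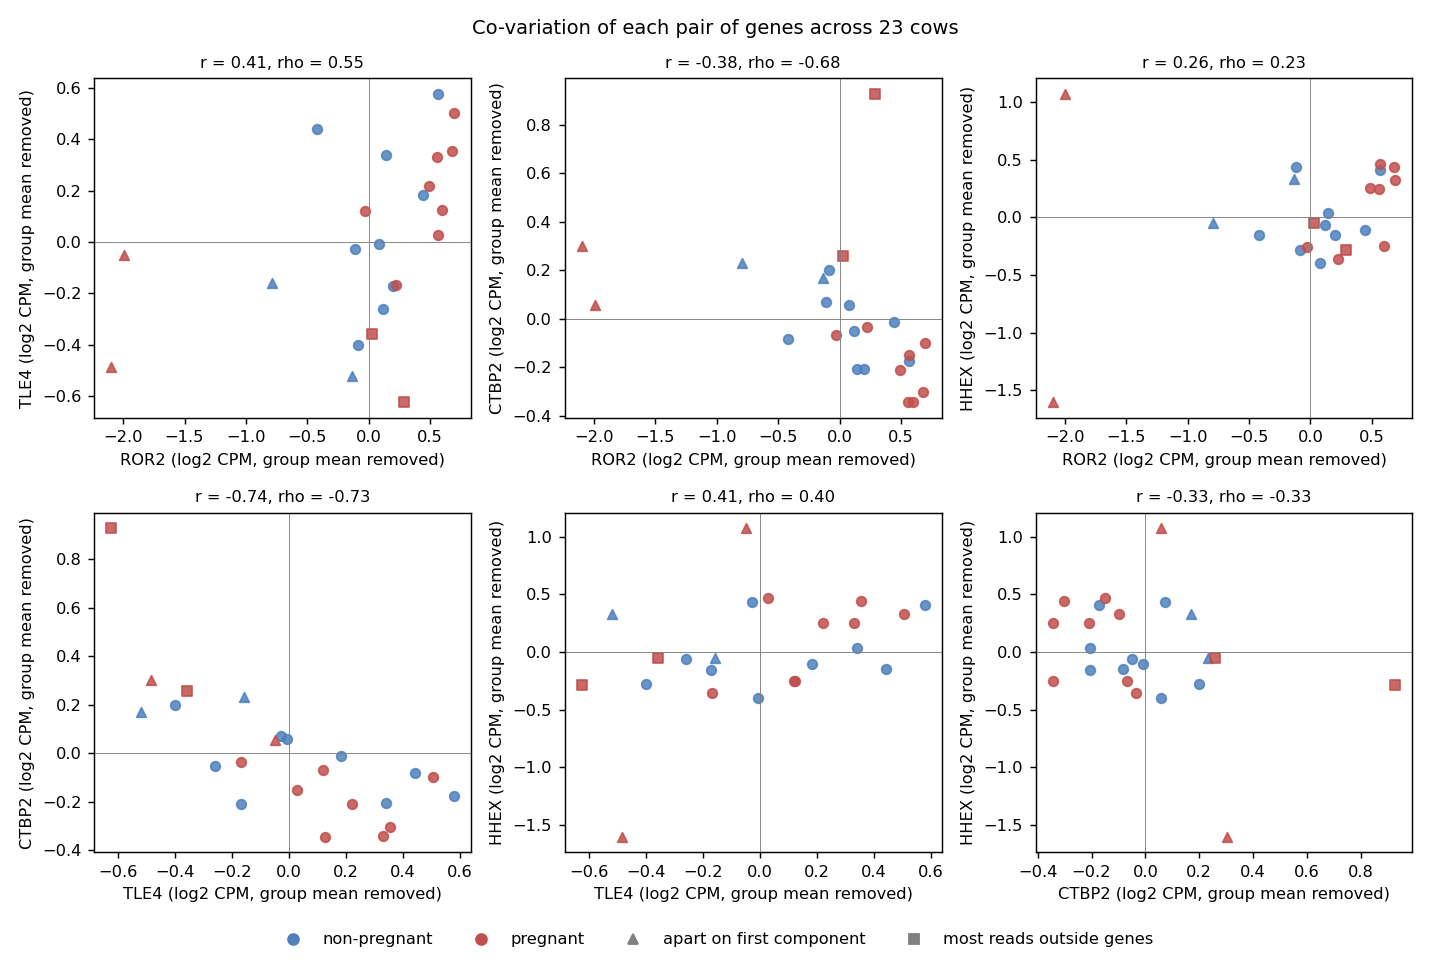
Log2 CPM of each pair of genes in 23 cows after the mean of each pregnancy group was removed, with 1 point per cow. Points for TLE4 and CTBP2 run from upper left to lower right (r = -0.744, rho = -0.733), and 2 triangles at the far left of the ROR2 panels are pregnant 22 and 23.

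The libraries in doubt bear on these relations. Without the 4 libraries apart, rho was -0.649 for TLE4 and CTBP2 (permutation, adjusted p = 0.0154), -0.567 for ROR2 and CTBP2 (adjusted p = 0.0315), 0.518 for ROR2 and TLE4 and 0.514 for TLE4 and HHEX (adjusted p = 0.0449 for both). Without pregnant 20 and 21 the first 3 were -0.635, -0.696 and 0.534, with adjusted permutation p of 0.00903, 0.00144 and 0.0115. Without all 6 libraries they were -0.488, -0.507 and 0.419 over 17 cows, and none passed the threshold (permutation, adjusted p = 0.132 for each).

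Within the 12 pregnant cows the rho of TLE4 and CTBP2 was -0.825 (permutation, adjusted p = 0.0117), that of ROR2 and CTBP2 was -0.706 (adjusted p = 0.0272) and that of ROR2 and TLE4 was 0.741 (adjusted p = 0.0254). Within the 11 non-pregnant cows the same pairs had rho of -0.518, -0.664 and 0.345, and none passed (permutation, adjusted p = 0.320, 0.181 and 0.602). The difference between the groups in these correlations was not tested. Of the 6 libraries in doubt, 4 were from pregnant cows.

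The pairs were also computed with measures of the libraries removed. When the share of reads outside genes was removed as well as the group means, rho was -0.741 for TLE4 and CTBP2 (permutation, adjusted p = 0.00132), -0.413 for ROR2 and CTBP2 and 0.405 for ROR2 and TLE4 (adjusted p = 0.0761 for both). When depth and the first principal component were removed too, the values were -0.699 (permutation, adjusted p = 0.00198), -0.115 and 0.118 (adjusted p = 0.607 for both). These 2 adjustments were chosen after the data were seen. The pair TLE4 and CTBP2 stayed past the threshold in both, and the pairs of ROR2 did not. The component is itself made from expression, and the part of these measures in the correlations was not tested.

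**Figure D3:**
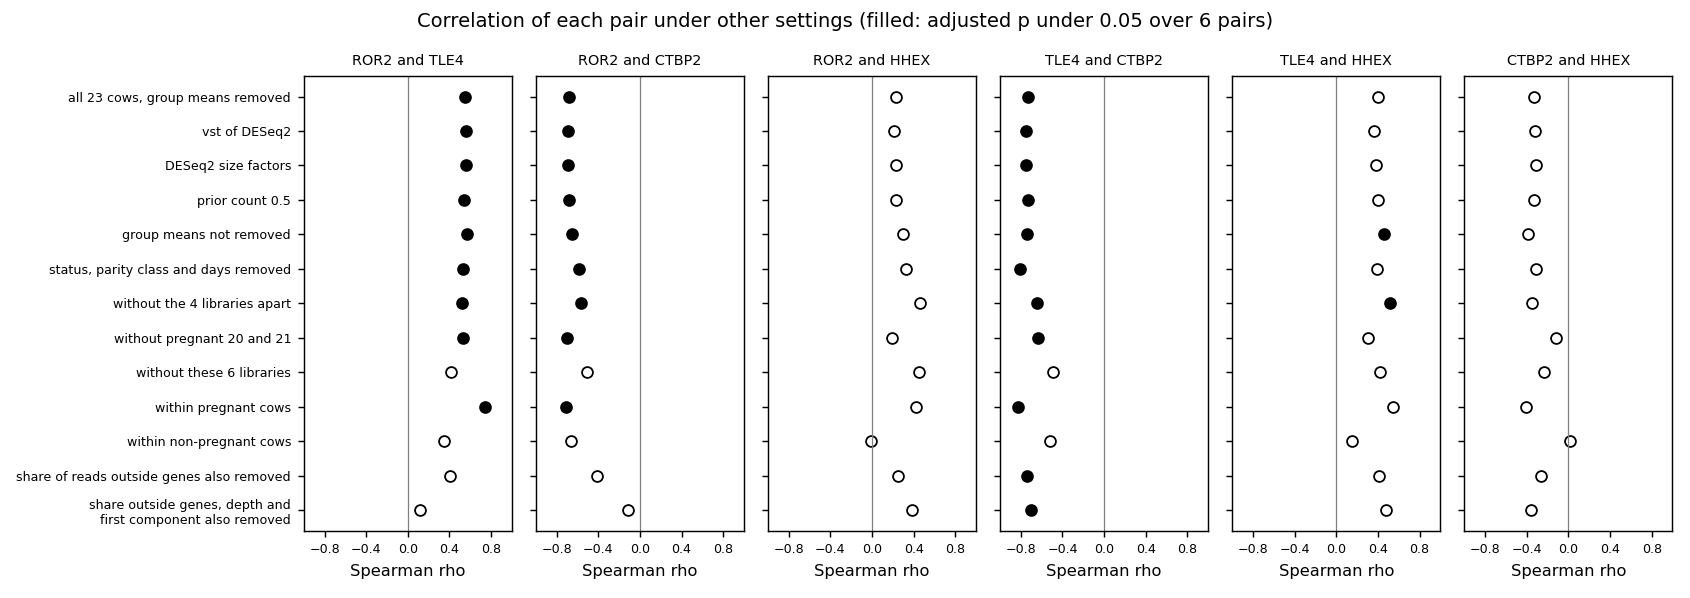
Spearman rho of each pair of genes (x axis, -1 to 1) under 13 settings (y axis), with filled points where the adjusted permutation p over 6 pairs was under 0.05. TLE4 and CTBP2 stay left of 0 in every setting shown, from -0.825 to -0.488, while ROR2 with CTBP2 and with TLE4 moves to -0.115 and 0.118 in the bottom row.

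The levels themselves were compared with depth, the share of reads outside genes and the first principal component, without pregnant 20 and 21 for the share and without the 4 libraries apart for the component. None of 12 relations passed after adjustment. Those with the share and the component cover only the libraries kept, and cannot show how the levels relate to these measures in the libraries left out. CTBP2 against log2 depth had r of -0.643 (permutation p = 0.00631, adjusted p = 0.0757) and rho of -0.437 (adjusted p = 0.597) over 23 libraries. Without the 2 libraries farthest in depth its r was -0.264. TLE4 against depth had the other sign, with r of 0.369 (permutation p = 0.0907, adjusted p = 0.363), and 0.057 without these 2 libraries. For ROR2 and HHEX the r with depth was 0.152 and 0.0081. ROR2 against the share of reads outside genes had r of -0.473 (permutation p = 0.0276, adjusted p = 0.166) and rho of -0.216 (adjusted p = 0.715) over 21 libraries.

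The first axis of the 4 genes, each scaled to the same variance, held 57.5% of their joint variance, with loadings of 0.582 for TLE4, 0.427 for ROR2, 0.408 for HHEX and -0.559 for CTBP2. Without the 4 libraries apart it held 62.5%, with CTBP2 again alone in sign at -0.512. The axis restates the correlations of the pairs above and is no further test.

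Parity, which played no part in choosing the genes, was tested in all 14852 genes by the quasi-likelihood method of edgeR, keeping pregnancy status in the model. Of all genes, 0% were called at an adjusted p under 0.05 by edgeR, 520 had an unadjusted p under 0.05, and DESeq2 called 0. None of the 4 genes was called. For ROR2, the lowest, median and highest values were 5.00, 26.5 and 35.9 CPM in the 12 cows of parity 1 and 15.2, 27.9 and 39.0 CPM in the 11 cows of parity 2 or more. The groups overlapped, and the log2 difference of parity 2 or more minus parity 1 was 0.22 (SE 0.26, 95% interval -0.33 to 0.76, edgeR adjusted p = 0.981). Without the 4 libraries apart it was 0.05 (SE 0.13), and with days from calving in the model it was 0.18 (SE 0.28).

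TLE4 ran from 11.8 to 21.8 CPM in parity 1 (median 18.6) and from 12.1 to 26.6 CPM in parity 2 or more (median 16.9). The 5 highest levels, from 23.1 to 26.6 CPM, were all in cows of parity 2 or more, but so was the second lowest. The log2 difference was 0.15 (SE 0.15, 95% interval -0.16 to 0.45, edgeR adjusted p = 0.981), and with days from calving in the model it was 0.070 (SE 0.16).

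CTBP2 had medians of 71.4 CPM in parity 1 and 68.0 CPM in parity 2 or more, within ranges of 54.8 to 85.8 and 54.9 to 132.5 CPM. Its log2 difference was 0.07 (SE 0.13, 95% interval -0.19 to 0.33, edgeR adjusted p = 0.983), and it changed sign to -0.081 without pregnant 21. HHEX had medians of 11.8 and 10.3 CPM within ranges of 3.93 to 25.7 and 8.72 to 16.6 CPM. Its log2 difference was -0.12 (SE 0.20, 95% interval -0.54 to 0.31, edgeR adjusted p = 0.983), and it was 0.012 without pregnant 23. With days from calving in the model the difference was 0.10 (SE 0.13) for CTBP2 and -0.19 (SE 0.21) for HHEX.

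The small groups within parity show the cows behind these values. The 5 pregnant cows of parity 2 or more had ROR2 at 25.4, 26.6, 32.0, 35.0 and 35.2 CPM, and the 5 non-pregnant cows of parity 1 had 24.0, 24.4, 28.6, 29.2 and 35.9 CPM. In pregnant cows the parity difference of ROR2 was 0.54 (SE 0.43) and in non-pregnant cows -0.096 (SE 0.22), with pregnant 22 and 23 both of parity 1. The test of this difference between status groups gave 0.65 (SE 0.52, 95% interval -0.43 to 1.73, edgeR adjusted p = 0.988). For TLE4, CTBP2 and HHEX the same term was 0.06, 0.10 and 0.21, with adjusted p of 0.988 or more by edgeR. Over all genes the interaction was called for 0%, with 443 genes at an unadjusted p under 0.05 by edgeR, and DESeq2 was not run on it.

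None of the slopes on days from calving passed the threshold either. For a change of 100 days the edgeR slope on the log2 scale was 0.18 (SE 0.28, 95% interval -0.40 to 0.76) for ROR2, 0.25 (SE 0.16, 95% interval -0.07 to 0.57) for TLE4, -0.11 (SE 0.15, 95% interval -0.42 to 0.19) for CTBP2 and 0.22 (SE 0.23, 95% interval -0.25 to 0.69) for HHEX. The adjusted p was 1.000 for each by edgeR's quasi-likelihood test. Of all genes 0% were called, 339 had an unadjusted p under 0.05, and DESeq2 called 0.

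TLE4 came nearest, with an unadjusted edgeR p of 0.123 and rank 1157 of 14852 genes. Its highest levels were in pregnant 15 (26.6 CPM at 274 days) and non-pregnant 14 (25.4 CPM at 261 days). But pregnant 7 had 19.1 CPM at 261 days, pregnant 18 had 23.6 CPM at 145 days and non-pregnant 4 had 11.8 CPM at 219 days. Without non-pregnant 14 the slope of TLE4 was 0.14, that of ROR2 0.069 and that of HHEX 0.14. The slope of CTBP2 was -0.0026 without pregnant 21 and turned to 0.016 without pregnant 20 and 21. The slopes of pregnant and non-pregnant cows differed by 0.26 for ROR2, -0.05 for TLE4, -0.23 for CTBP2 and 0.25 for HHEX, with an adjusted p of 0.993 for each by edgeR. This term was called for 0% of all genes, with 296 at an unadjusted p under 0.05, again by edgeR alone.

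**Figure D4:**
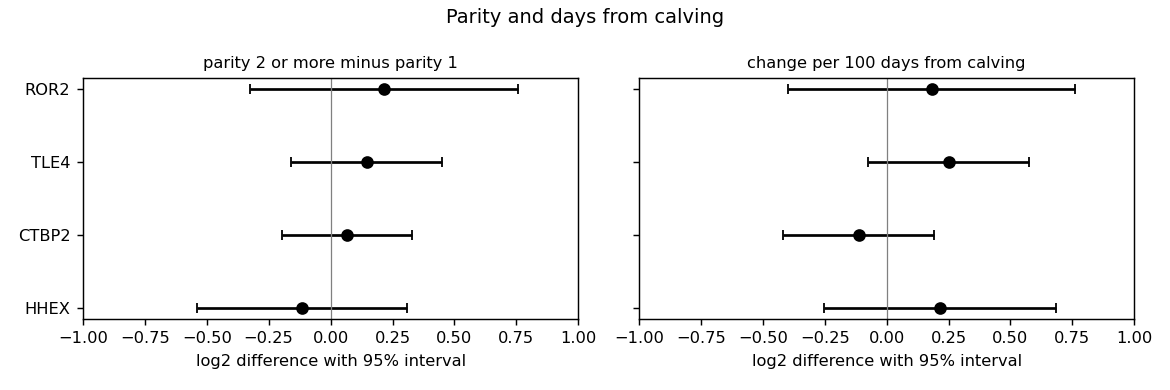
Log2 difference between parity 2 or more and parity 1 (left) and log2 change per 100 days from calving (right) for the 4 genes, with points for edgeR estimates and bars for 95% intervals. Every interval includes 0, and the widest are those of ROR2, at -0.33 to 0.76 and -0.40 to 0.76.

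**Figure D5:**
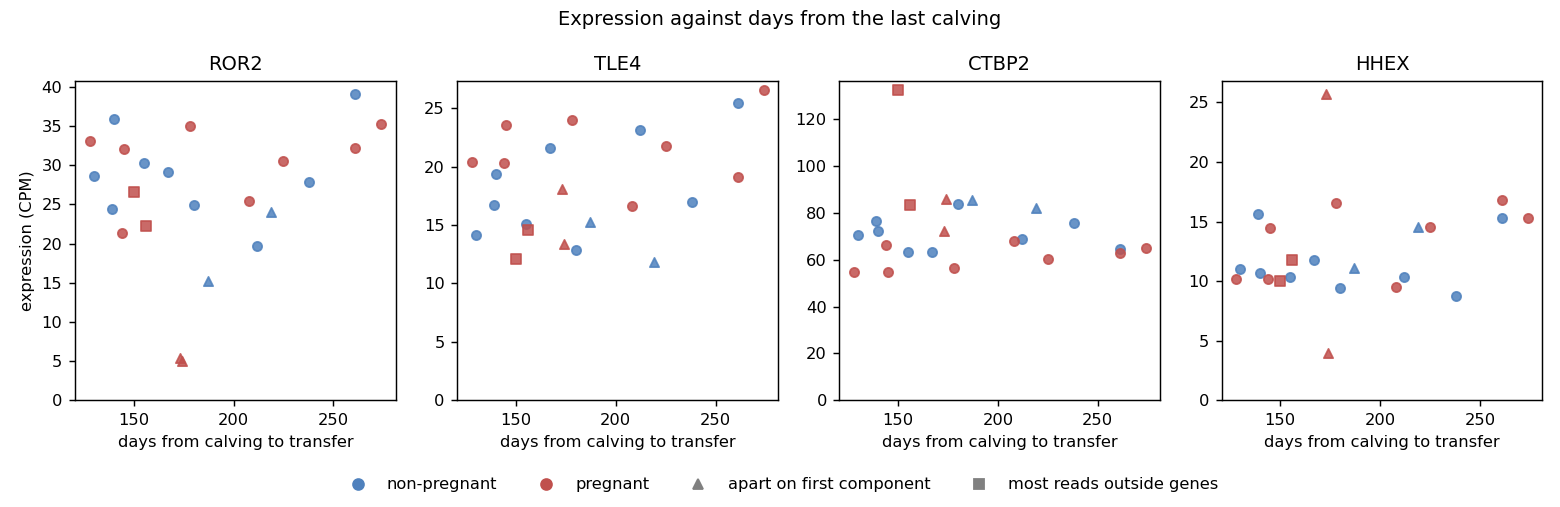
CPM of the 4 genes (y axis, linear) against days from the last calving to transfer (x axis) in 23 cows, coloured by pregnancy. The highest TLE4 values, 26.6 and 25.4 CPM, lie at 274 and 261 days. Pregnant 7, also at 261 days, had 19.1 CPM, and values between 11.8 and 24.0 CPM occur at shorter intervals.

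The pattern most like each gene was sought among the 46 other biomarker genes, which are the only others with a symbol here, by rho over the 23 cows with group means removed. All of these genes share the libraries and the study's selection, so the values are a description. ROR2 was most like EBF4, an early B cell factor family transcription factor (rho 0.762, and 0.646 without the 4 libraries apart), PPIC, a cyclophilin (0.716 and 0.732) and CLECL1, a C-type lectin-like gene (0.654 and 0.672). TLE4 shared EBF4 (0.639 and 0.672) and CLECL1 (0.594 and 0.516) with ROR2, and had GLB1L, a beta-galactosidase-like gene (0.601 and 0.716), between them.

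CTBP2 had another set of neighbours. The nearest was STAG2, a cohesin subunit, at 0.737. It was followed by PAXIP1, a BRCT-domain protein of the DNA damage response, at 0.537, and without the 4 libraries apart the values were 0.607 and 0.342. HHEX was most like CLECL1 (0.597, and 0.777 without the 4 libraries apart), RIN3, an exchange factor for RAB5 (0.590 and 0.440) and YWHAQ, a 14-3-3 protein (0.541 and 0.426). Over all tested genes, the share with a still higher rho was 0.768% for EBF4 and 3.20% for CLECL1 with ROR2, 0.269% for STAG2 and 4.42% for PAXIP1 with CTBP2, and 0.727% for CLECL1 with HHEX. For TLE4 it was 0.788% for EBF4 and 1.74% for CLECL1. CLECL1 was in the nearest 3 of ROR2, TLE4 and HHEX and not of CTBP2.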

How the data were processed

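RNA from endometrial biopsies of 23 cows was made into stranded total RNA libraries. The authors deposited raw read counts per Ensembl gene, 1 table per cow. STAR, HTSeq and the UMD3.1 genome are named in the submitters' processing notes. For their versions, the annotation release and the strand setting of the counting, nothing is given in the sources used here, so reads of overlapping or antisense genes may not be told apart. Rows that name no gene were left out of library sizes and tests. Reads outside annotated genes were 39.2% to 76.7% of the sum of reads in genes, outside genes and ambiguous. Ambiguous reads were under 0.01% of that sum. No sequence or coordinate is printed, because the reference table used here is of another assembly.

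Genes were filtered with filterByExpr of edgeR 4.0.16 (R 4.3.3), scaled by TMM and tested with the quasi-likelihood test (glmQLFit, glmQLFTest), with pregnancy status in the model and Benjamini-Hochberg adjustment over all 14852 genes at 0.05. Parity was coded as 1 against 2 or more, and days from calving as a slope per 100 days. DESeq2 1.42.0 was an alternative. Log2 CPM used a prior count of 2. Correlations were computed in Python with numpy and tested by permutation within pregnancy groups. The scripts were tested on simulated data. In 121 pairs of libraries of the same group the lowest chi-square per degree of freedom was 32.4, so none differed as little as sampling noise alone would allow.

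The 4 genes, the lists and the libraries left out were chosen with earlier results of these data known. Genes named beside the 4 are, for each, the 3 with the highest rho among those with a symbol, except 1 that is not reported here. Lists of Wnt pathway genes and of cell type markers, and the relatives of the 4 genes, were drawn up, but could not be matched to the Ensembl identifiers and have no values here. The edgeR p-values set a difference or slope against the spread between cows. Those of the correlations come from shuffling cows. Alternatives changed the normalization, filter, test, covariates, parity coding, prior count, scale and set of cows.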

Additional observations from a re-analysis of the deposited data

Results flagged for a closer look

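In 16 groups of 5 to 7 cows (each gene within each pregnancy and parity group), the highest and the lowest value were compared with the nearest other value by Dixon's 95% limits, which chance passes in about 1 of 20 groups. The limit was passed in 2 groups. CTBP2 in pregnant 21 was 132.5 CPM, against 68.0 CPM in the next of 5 pregnant cows of parity 2 or more. This library had the lowest depth, 6920879 reads in genes. Of its reads in genes, outside genes or ambiguous, 76.7% lay outside genes. The part of these properties in its CTBP2 level was not tested. HHEX in non-pregnant 14 was 15.3 CPM, against 11.1 CPM in the next of 6 non-pregnant cows of parity 2 or more. The same cow had the highest ROR2 of all, at 39.0 CPM, and the second highest TLE4, at 25.4 CPM.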

How the results depend on the processing

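No paired analysis was possible because the sample numbers run through both pregnancy groups and are not shared between them. None of the 4 genes passed the threshold for parity or days in any alternative. The parity difference changed sign for ROR2 within non-pregnant cows (-0.096), for CTBP2 without pregnant 20 and 21 (-0.056), and for HHEX when pregnant 23 was left out. The slope on days changed sign for CTBP2 within non-pregnant cows (0.035), without pregnant 20 and 21 (0.016) and without all 6 libraries in doubt (0.031). With each cow left out in turn, the parity difference ranged from 0.12 to 0.29 for ROR2, 0.092 to 0.21 for TLE4, -0.081 to 0.11 for CTBP2 and -0.20 to 0.012 for HHEX.

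The rho of TLE4 and CTBP2 no longer passed without the 6 libraries (-0.488) and within non-pregnant cows (-0.518). In the same settings and with 1 and 3 library measures removed, rho of ROR2 and CTBP2 was -0.507, -0.664, -0.413 and -0.115, and that of ROR2 and TLE4 was 0.419, 0.345, 0.405 and 0.118. The rho of TLE4 and HHEX passed with group means kept (0.457, adjusted permutation p = 0.0444) and without the 4 libraries apart (0.514). It also passed without non-pregnant 4 (0.492, adjusted permutation p = 0.0367) and without pregnant 23 (0.504, adjusted permutation p = 0.0304). Within non-pregnant cows rho was -0.0091 for ROR2 and HHEX and 0.018 for CTBP2 and HHEX. With each cow left out in turn rho ranged from -0.817 to -0.684 for TLE4 and CTBP2, -0.740 to -0.651 for ROR2 and CTBP2, 0.461 to 0.635 for ROR2 and TLE4, 0.315 to 0.504 for TLE4 and HHEX, 0.126 to 0.491 for ROR2 and HHEX and -0.407 to -0.160 for CTBP2 and HHEX. The causes of these changes were not tested, and some settings also held fewer cows. Alternatives for the Wnt gene lists were not run. Counting error was at most 13.1% of a value.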
